A study of Oryza sativa with 24 samples.

Results

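The DNA methylation peaks of 2 rice F1 hybrids were set against those of both parents, to describe which parental peaks were kept, widened, narrowed or no longer listed in the hybrids. The members are all peaks of the 4 deposited DNA methylation lists, 95484 of the 410072 peaks in the 16 lists analysed here. The lines were the japonica cultivar Nipponbare (24126 peaks), the indica cultivar 93-11 (22332 peaks) and their reciprocal F1 hybrids, named Nipponbare/93-11 (24331 peaks) and 93-11/Nipponbare (24695 peaks). Which of its names is the seed parent's is not stated for either hybrid, and the names are kept as the labels write them. Shoots were taken at the 4-leaf stage from seedlings grown in soil in a greenhouse for 4 weeks at 28 °C, with 16 h of light and 8 h of dark. Methylated genomic DNA was enriched with digestion by McrBC, a bacterial enzyme that cuts DNA at methylated cytosines, and sequenced. There was 1 library for each line and therefore no replicate error, which means that differences between lines are given without a test, as differences between libraries.

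Cytosine methylation in plants occurs in the CG, CHG and CHH contexts (H is any base but G). It is dense over transposons and other repeats, where it accompanies silencing, and in the CG context it also lies in the bodies of many expressed genes. CG methylation is copied onto the new strand after replication, so that a methylated allele can be passed on. In an F1 hybrid each cell holds 1 allele from each parent, and a peak list like these does not separate the alleles. A peak was "listed" in another line when the other list held a peak that overlapped it by at least 1 bp. Otherwise it was "not listed", since the reads behind the lists are unknown and a region below the authors' threshold cannot be told apart from an unmethylated one. Tissue markers could not be checked in peak lists without gene annotation.

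The lists were similar in length but those of the hybrids covered more sequence. Nipponbare peaks covered 43.0 Mb and 93-11 peaks 39.4 Mb, against 47.9 Mb in Nipponbare/93-11 and 48.6 Mb in 93-11/Nipponbare. These were 11.6, 10.6, 12.9 and 13.1% of the sequence spanned by the peaks. The median peak was 1461 bp wide in Nipponbare, 1454 bp in 93-11, 1609 bp in Nipponbare/93-11 and 1592 bp in 93-11/Nipponbare. The hybrids, which carry the same nuclear genomes, give the nearest thing to a repeat. With plastid and mitochondrial peaks included, 79.1% of Nipponbare/93-11 peaks were listed in 93-11/Nipponbare, and 78.0% in the opposite direction. By the same count 62.9% of Nipponbare peaks were listed in Nipponbare/93-11 and 71.2% in 93-11/Nipponbare, while 80.2% and 77.2% of 93-11 peaks were.

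Peaks that the parents had in common were kept in most cases. Of 13077 Nipponbare peaks shared with 93-11, 85.3% (84.7 to 85.9, exact 95% interval for counting error only) were listed in both hybrids and 3.92% in neither. A further 499 were listed in Nipponbare/93-11 alone and 914 in 93-11/Nipponbare alone. Across all Nipponbare peaks, the share not listed was 37.1% in Nipponbare/93-11 and 28.8% in 93-11/Nipponbare, and across all 93-11 peaks it was 19.8% and 22.8%. Most of the peaks that were not listed were therefore single-parent peaks, those of 1 parent that overlapped none of the other parent.

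Single-parent peaks had unequal fates by parent of origin and by hybrid. Of 11049 Nipponbare-only peaks, 2681 were listed in both hybrids, 842 in Nipponbare/93-11 alone, 2439 in 93-11/Nipponbare alone and 5087 in neither. Of 9315 93-11-only peaks, 4470 were listed in both, 1833 in Nipponbare/93-11 alone, 745 in 93-11/Nipponbare alone and 2267 in neither. The share in neither hybrid was thus 46.0% (45.1 to 47.0) for Nipponbare-only peaks and 24.3% for 93-11-only peaks. Between the hybrids the order turned with the parent: peaks listed in 1 hybrid alone were mostly in 93-11/Nipponbare when they came from Nipponbare, and mostly in Nipponbare/93-11 when they came from 93-11.

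To see how much of this overlap position alone gives, lists were moved along each nuclear chromosome by 20 evenly spaced circular offsets. With the hybrid list moved alone, 23.9% (22.8 to 25.1 over the offsets) of Nipponbare-only peaks met a Nipponbare/93-11 peak, against 31.9% (31.0 to 32.8, counting error) in place. For Nipponbare-only peaks in 93-11/Nipponbare the values were 24.2% moved and 46.3% in place. For 93-11-only peaks they were 23.2% moved and 67.7% in place in Nipponbare/93-11, and 23.5% moved and 56.0% in place in 93-11/Nipponbare. Every observed share lay above its moved level, by as little as 7.95 percentage points for Nipponbare-only peaks in Nipponbare/93-11 and by as much as 44.5 points for 93-11-only peaks in the same hybrid. Shared parental peaks met moved hybrid peaks in 24.1 to 24.7% of cases and were listed in place in 89.1 to 92.4%.

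Moving the hybrid list alone sets the level for single-parent peaks too high, because these peaks lie by definition where the other parent has none and hybrid peaks often coincide with that parent. A second level, chosen after seeing the data, moved the other parent and both hybrids together and called single-parent peaks anew. It was 9.34% (8.78 to 10.1) for Nipponbare-only peaks in Nipponbare/93-11 and 10.6% in 93-11/Nipponbare. For 93-11-only peaks it was 12.7% in Nipponbare/93-11 and 10.9% in 93-11/Nipponbare. Against this level the excess was 22.5 and 35.7 points for Nipponbare-only peaks, and 55.0 and 45.1 points for 93-11-only peaks, in Nipponbare/93-11 and 93-11/Nipponbare respectively. The order of the 4 comparisons was the same with either level. For shared peaks this second level was 62.3 to 79.8%, and the excess 9.26 to 26.9 points. There it is no level of position alone, since the hybrid lists keep their place on the very parent that a peak must meet to count as shared.

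**Figure D1:**
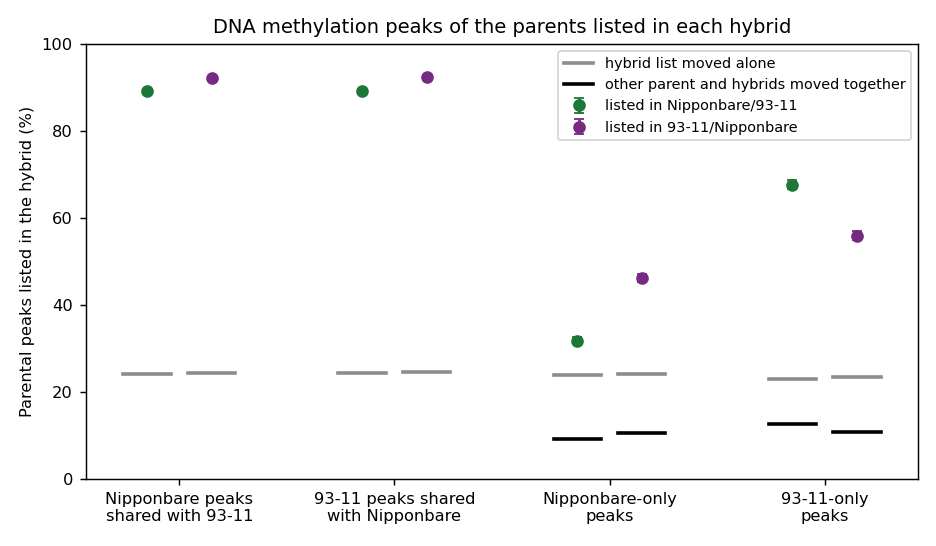
Share of parental DNA methylation peaks listed in each hybrid (%), with exact 95% intervals, for peaks shared by the parents and peaks of 1 parent alone; grey lines give the mean with the hybrid list moved alone and black lines the mean with the other parent and both hybrids moved together. Shared peaks sit near 90%, and single-parent peaks between 31.9 and 67.7%, above both moved levels.

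The combined fates show the same order. With the lists moved together, 5.15% of Nipponbare-only peaks met peaks of both hybrids, 4.18% met Nipponbare/93-11 alone, 5.45% met 93-11/Nipponbare alone and 85.2% met neither, against 24.3, 7.61, 22.1 and 46.0% in place on the nuclear chromosomes. For 93-11-only peaks the moved shares were 7.26, 5.48, 3.60 and 83.7%, against 48.0, 19.7, 7.96 and 24.3% in place. The excess was smallest for Nipponbare-only peaks in Nipponbare/93-11 alone, at 7.61% in place and 4.18% moved.

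Peaks kept in 1 hybrid were more often found in the other as well. The hybrid lists also coincided at moved positions. With only the hybrid lists moved, 18.4% of Nipponbare-only peaks met both hybrids, 5.55% Nipponbare/93-11 alone and 5.83% 93-11/Nipponbare alone. For 93-11-only peaks these shares were 17.7, 5.51 and 5.82%. With the other parent moved as well they were 5.15, 4.18 and 5.45%, and 7.26, 5.48 and 3.60%. The shares below thus include overlap that the hybrid lists have with each other at any position. Of Nipponbare-only peaks listed in Nipponbare/93-11, 76.1% (74.7 to 77.5) were also listed in 93-11/Nipponbare, against 32.4% of those not listed in Nipponbare/93-11. Of 93-11-only peaks listed in 93-11/Nipponbare, 85.7% were also in Nipponbare/93-11, against 44.7% of the others. The opposite directions gave lower shares. Of Nipponbare-only peaks listed in 93-11/Nipponbare, 52.4% were also in Nipponbare/93-11, against 14.2% of the others. Of 93-11-only peaks listed in Nipponbare/93-11, 70.9% were also in 93-11/Nipponbare, against 24.7% of the others. Even among shared peaks not listed in Nipponbare/93-11, 64.1% were listed in 93-11/Nipponbare. Agreement between the hybrids therefore varied with the class: 93-11/Nipponbare held 95.7% of the shared Nipponbare peaks that Nipponbare/93-11 held.

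Counted in base pairs, the parental lists gave the same picture. Sequence listed in both parents (20.03 Mb) was covered to 87.7% by Nipponbare/93-11 peaks and to 90.7% by 93-11/Nipponbare peaks. Sequence listed in Nipponbare alone (23.0 Mb) was covered to 30.1 and 43.5%, and sequence listed in 93-11 alone (19.3 Mb) to 65.4 and 54.2%. Seen from the hybrids, 36.7% of Nipponbare/93-11 peak sequence lay in peaks of both parents, 14.4% in Nipponbare alone, 26.3% in 93-11 alone and 22.5% in neither parent. In 93-11/Nipponbare these shares were 37.4, 20.6, 21.5 and 20.5%, so the single-parent contributions were nearly equal there.

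The overlap was centred on the parental peaks. At the centre of Nipponbare-only peaks, 30.6% of positions lay in a Nipponbare/93-11 peak and 45.8% in a 93-11/Nipponbare peak, and at 2 kb to the left these shares were 8.86 and 9.03%. At 10 kb to the left they were 13.8 and 14.1%. At the centre of 93-11-only peaks 67.4% lay in a Nipponbare/93-11 peak and 55.6% in a 93-11/Nipponbare peak, falling to 8.23 and 8.05% at 2 kb. The other parent's coverage was 0 at the centre, as the class requires, and 11.3% at 10 kb left of Nipponbare-only peaks.

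**Figure D2:**
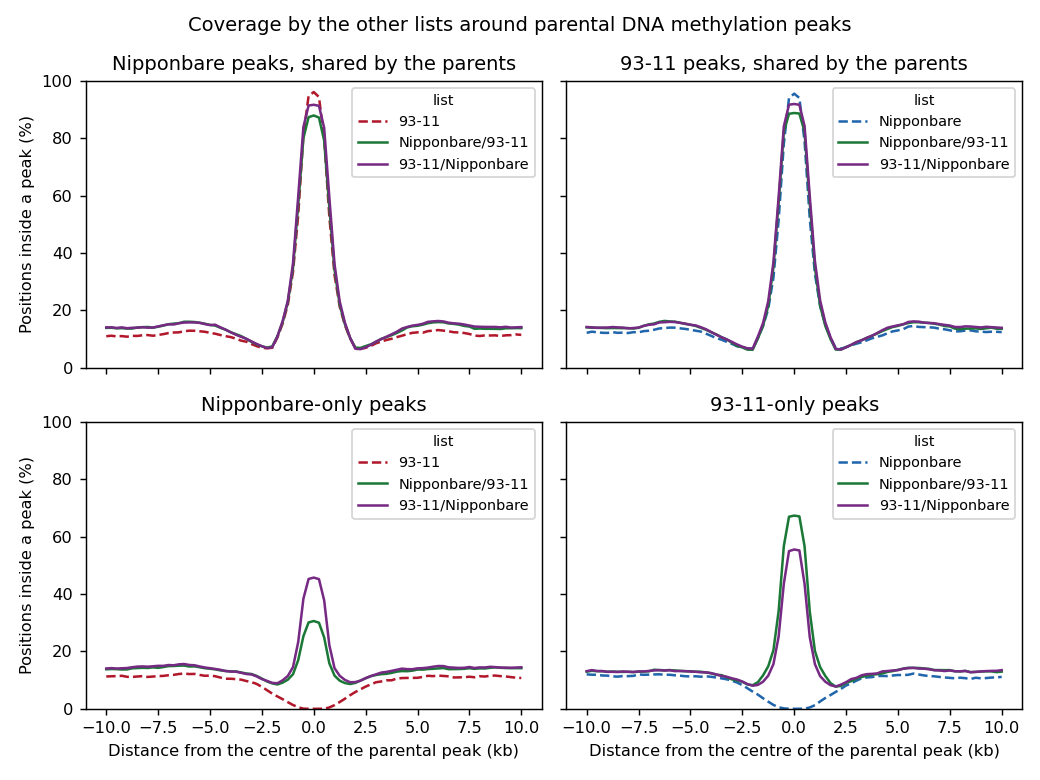
Share of parental peaks (%) whose surroundings lie inside a peak of another list, against distance from the peak centre (kb), for peaks shared by the parents (top) and of 1 parent alone (bottom). Both hybrids rise at the centre of single-parent peaks, to 30.6 and 45.8% for Nipponbare-only and 67.4 and 55.6% for 93-11-only peaks, while the other parent is at 0 there.

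Most single-parent peaks that were not listed lay over 2 kb from the nearest hybrid peak. The median distance from a Nipponbare-only peak not listed in Nipponbare/93-11 to the nearest peak of that hybrid was 4521 bp, and 4.998% lay within 500 bp. Over all 4 comparisons the median was 4420 to 4640 bp, and 4.44 to 4.998% lay within 500 bp and 23.5 to 25.9% within 2000 bp. No moved level was computed for these distances.

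The share kept differed with the width of the parental peak, and so did the moved levels. Each parental list was cut into 10 classes of equal size by width. Nipponbare-only peaks of the narrowest class were listed in Nipponbare/93-11 in 26.2% of cases and in 93-11/Nipponbare in 36.9%. The share reached 40.2% in class 8 for Nipponbare/93-11 and 53.2% in class 6 for 93-11/Nipponbare. Between the same classes the level with the hybrid list moved alone went from 17.8 to 26.4% for Nipponbare/93-11 and from 18.2 to 23.3% for 93-11/Nipponbare. 93-11-only peaks rose from 49.97% in the narrowest class to 77.2% in class 7 in Nipponbare/93-11, and from 39.2% to 69.1% in class 5 in 93-11/Nipponbare. The levels moved alone went from 17.7 to 25.2% and from 17.8 to 22.1% there.

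The rise ended before the widest class. In class 9 Nipponbare-only peaks were listed in 34.3% of cases in Nipponbare/93-11 and in 41.6% in 93-11/Nipponbare. For 93-11-only peaks of class 9 the shares were 75.8 and 60.8% in the same hybrids. In the widest class the share of Nipponbare-only peaks in Nipponbare/93-11 was 34.8%. This was below the 39.5% with the hybrid list moved alone and above the 14.8% with the lists moved together. In 93-11/Nipponbare it was 41.7%, against 39.5 and 16.3%. For 93-11-only peaks it was 62.4% in Nipponbare/93-11 (37.4 and 20.02% moved) and 42.2% in 93-11/Nipponbare (38.1 and 16.8% moved). Shared peaks of the widest class were listed in 83.7 and 84.0% of cases for Nipponbare and 79.3 and 81.1% for 93-11, in Nipponbare/93-11 and 93-11/Nipponbare. These were the lowest of the 10 classes except for shared 93-11 peaks in Nipponbare/93-11, where the narrowest class had 78.4%. Single-parent peaks were most frequent among the narrowest peaks, at 57.3% in Nipponbare and 65.3% in 93-11, and were 44.5 and 38.4% of the widest class.

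**Figure D3:**
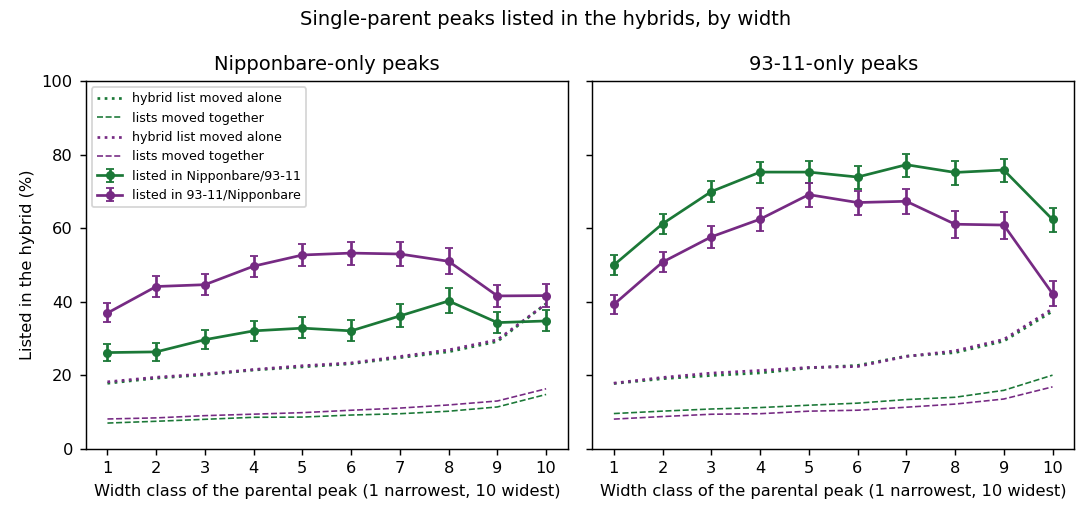
Share of single-parent peaks listed in each hybrid (%) by width class of the parental peak (1 narrowest, 10 widest), with exact 95% intervals; dotted and dashed lines give the levels with the hybrid list moved alone and with the lists moved together. In each of the 4 comparisons the narrowest class has the lowest share, and in the widest class the levels moved alone (37.4 to 39.5%) come close to 3 of the 4 observed shares.

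The median width by fate followed the same lines. Nipponbare-only peaks listed in both hybrids had a median of 1444 bp and those in neither 1330 bp, while 93-11-only peaks had 1367.5 and 1118 bp. Among shared Nipponbare peaks the order was opposite, with 1536 bp for those in both hybrids and 1861.5 bp for those in neither. Of the 65 Nipponbare peaks of at least 10 kb, 41 were listed in neither hybrid and 4 in both. Of all Nipponbare peaks, 23.2% were in neither and 57.3% in both. Of the 65, 55 were Nipponbare-only, and 40 of these were in neither hybrid, against 46.0% of all Nipponbare-only peaks. Of the 22 such 93-11 peaks, 11 were in neither hybrid and 6 in both, against 12.5 and 69.8% of all 93-11 peaks. Of the 22, 10 were 93-11-only, and 6 of these were in neither hybrid, against 24.3% of all 93-11-only peaks.

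The 12 nuclear chromosomes differed less than the hybrids did. Nipponbare-only peaks were listed in Nipponbare/93-11 in 27.2% (chromosome 3) to 33.9% (chromosome 12) of cases and in 93-11/Nipponbare in 43.6% (chromosome 2) to 49.1% (chromosome 1). 93-11-only peaks were listed in Nipponbare/93-11 in 64.3% (chromosome 12) to 73.0% (chromosome 2) and in 93-11/Nipponbare in 53.2% (chromosome 4) to 59.7% (chromosome 8). On each of the 12 chromosomes 93-11/Nipponbare held more of the Nipponbare-only peaks, and Nipponbare/93-11 more of the 93-11-only peaks. The excess over the level with the hybrid list moved alone ran from 5.59 points (chromosome 6) to 12.6 points (chromosome 1) for Nipponbare-only peaks in Nipponbare/93-11, and from 40.1 (chromosome 12) to 51.8 points (chromosome 2) for 93-11-only peaks there, so the chromosomes did not differ less after this level was taken off. The excess over the level with lists moved together ran from 20.4 points (chromosome 3) to 25.1 points (chromosome 1) for Nipponbare-only peaks in Nipponbare/93-11, and from 50.2 (chromosome 12) to 61.2 points (chromosome 2) for 93-11-only peaks there.

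**Figure D4:**
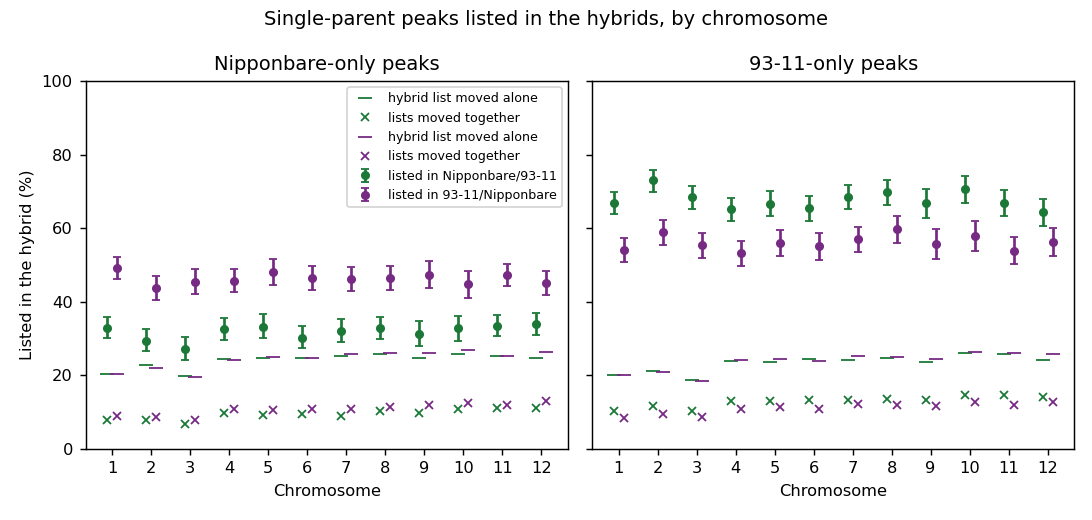
Share of single-parent peaks listed in each hybrid (%) on the 12 nuclear chromosomes, with exact 95% intervals; short lines give the level with the hybrid list moved alone and crosses the level with the lists moved together. On every chromosome both hybrids lie above their levels, and the order of the hybrids is opposite for Nipponbare-only and 93-11-only peaks.

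Smaller windows spread more widely, as shares of few peaks do from counting alone. How much of the spread is counting error was not computed. In 288 windows of 1 Mb with at least 20 Nipponbare-only peaks, the share listed in Nipponbare/93-11 had a median of 31.8% and ran from 8.82 to 67.9%. In 93-11/Nipponbare the median was 46.9%, from 20.5 to 78.6%. In 299 such windows for 93-11-only peaks the medians were 67.9% (41.4 to 95.8) in Nipponbare/93-11 and 56.5% (31.8 to 87.0) in 93-11/Nipponbare. The window from 8000001 to 9000000 on chromosome 6 was highest for Nipponbare-only peaks in both hybrids, with 19 of 28 listed in Nipponbare/93-11 and 22 of 28 in 93-11/Nipponbare. The lowest for Nipponbare/93-11 were chromosome 5 from 10000001 to 11000000 (3 of 34) and chromosome 3 from 18000001 to 19000000 (3 of 31). For 93-11-only peaks in Nipponbare/93-11 the highest was chromosome 1 from 19000001 to 20000000 (23 of 24) and the lowest chromosome 12 from 20000001 to 21000000 (12 of 29). With 24 to 34 peaks in the windows named, intervals from counting alone are wide.

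Neighbouring single-parent peaks tended to share a fate. Among Nipponbare-only peaks at most 10 kb apart, the next was listed in Nipponbare/93-11 in 36.7% (33.7 to 39.7) of cases when the first was listed and in 29.6% (27.7 to 31.6) when it was not. In 93-11/Nipponbare the shares were 48.3 and 40.8%. For 93-11-only peaks they were 71.0 and 64.9% in Nipponbare/93-11, and 58.0 and 54.6%, with overlapping intervals, in 93-11/Nipponbare.

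Where a parental peak was kept, it was more often widened than narrowed. Among peaks that overlapped exactly 1 peak each way, 14.1% of 14796 Nipponbare peaks were at least 1.5 times wider in Nipponbare/93-11 and 3.65% at least 1.5 times narrower. In 93-11/Nipponbare 11.6% of 16777 were wider and 1.99% narrower. For 93-11 peaks 8.13% of 17681 were wider and 1.11% narrower in Nipponbare/93-11, and 9.68% of 17037 were wider and 1.61% narrower in 93-11/Nipponbare. By the same count 93-11 peaks were wider than their Nipponbare partners in 10.3% and narrower in 8.81%, and the hybrids differed from each other by that much in 3.24 and 3.03%.

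The typical change was small. The median log2 ratio of hybrid to parental width was 0.13 for shared and 0.05 for Nipponbare-only peaks in Nipponbare/93-11, and 0.14 and 0.06 in 93-11/Nipponbare. For shared and 93-11-only peaks it was 0.10 and 0.09 in Nipponbare/93-11, and 0.11 and 0.03 in 93-11/Nipponbare. Nipponbare-only peaks were narrower by 1.5 times in 6.80% of pairs in Nipponbare/93-11, against 2.71% of shared Nipponbare peaks. Splits were rare: 0.128 to 0.270% of overlapping parental peaks met more than 1 hybrid peak. Parental peaks that shared a hybrid peak with another peak of the same parent made up 2.21 and 2.14% in Nipponbare, and 1.12 and 0.888% in 93-11.

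Width ratios were highest in narrow parental peaks, but the classes were cut on the parental width by which the ratio divides. A fall from the narrowest to the widest class is therefore built in, and it is no trait of the hybrids. In the narrowest class of shared Nipponbare peaks the median log2 ratio was 0.49 in Nipponbare/93-11 and 0.40 in 93-11/Nipponbare, and in the widest class it was -0.01 and 0.00. The other parent also had wider peaks there, with a median of 0.30 for 93-11 over Nipponbare in the narrowest class and -0.06 in the widest. Nipponbare-only peaks of the narrowest class had medians of 0.30 in Nipponbare/93-11 and 0.26 in 93-11/Nipponbare, close to or below 93-11 over Nipponbare. In the narrowest class of 93-11, shared peaks had medians of 0.37 in Nipponbare/93-11 and 0.36 in 93-11/Nipponbare. There 93-11-only peaks had 0.29 and 0.17 in the same hybrids, against 0.22 for Nipponbare over 93-11, which fell to -0.07 in the widest class.

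**Figure D5:**
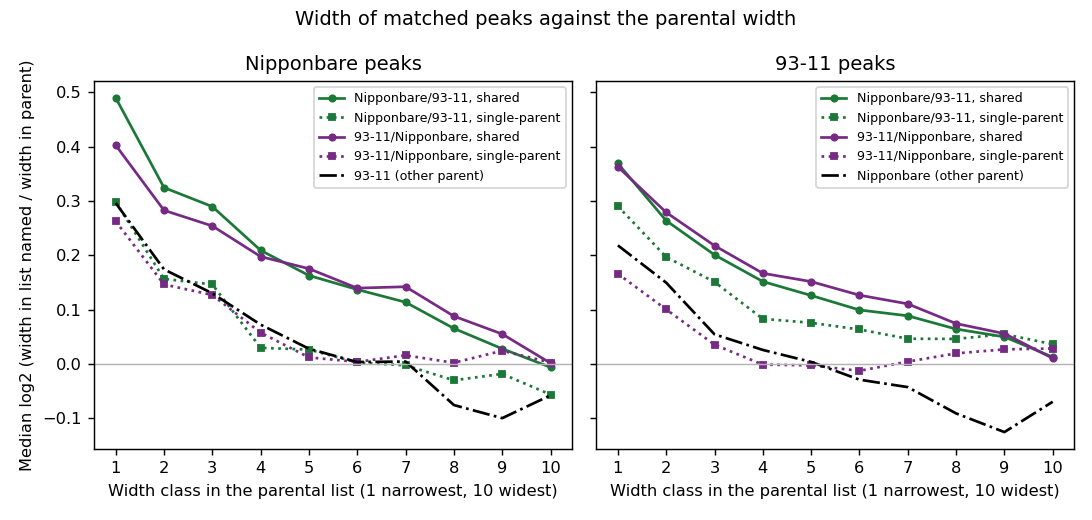
Median log2 ratio of the width in the named list to the width in the parental list, by width class of the parental peak (1 narrowest, 10 widest), for pairs of peaks that match 1 to 1. In every list the ratio is highest in the narrowest class, a slope built in because the classes are cut on the width that divides. There, shared Nipponbare peaks have 0.49 and 0.40 in the hybrids, against 0.30 for the other parent.

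Regions with exactly 1 peak in each of the 4 lines allow the widths to be ranked. In 10877 such regions the median width was 1537 bp in Nipponbare, 1569 bp in 93-11, 1753 bp in Nipponbare/93-11 and 1789 bp in 93-11/Nipponbare. Both hybrids exceeded both parents in 39.4% of the regions (38.5 to 40.3), lay within the parental range in 20.7% and fell below both in 2.43%. Both were at least 1.5 times the wider parent in 138 regions and at most the narrower parent divided by 1.5 in 3 regions. Where the parents differed by at least 1.5 times, the hybrids lay between them in the median. These regions were picked by a wide gap between the parental lists, so any further list would tend to fall between them. In 817 regions wider in Nipponbare the medians were 2290 bp in Nipponbare, 1220 bp in 93-11, 1794 bp in Nipponbare/93-11 and 2039 bp in 93-11/Nipponbare. In 1016 regions wider in 93-11 they were 1202, 2299, 2264.5 and 2159.5 bp in the same order of lines, with the hybrids close to the wider parent. In the other 9044 regions, with the parents within 1.5 times, they were 1528, 1548.5, 1699 and 1731 bp, with both hybrids above both parents.

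Hybrid peaks in neither parent were fewer than position alone gives. They made up 12.7% of Nipponbare/93-11 peaks (3091) and 10.1% of 93-11/Nipponbare peaks (2501), against 67.2 and 67.3% when both parental lists were moved together. They were narrow, with medians of 1336 and 1311 bp against 1772 and 1797 bp for hybrid peaks that met both parents. The gap was smaller to hybrid peaks that met Nipponbare alone (1477 and 1453 bp) or 93-11 alone (1467 and 1368 bp). Of the Nipponbare/93-11 peaks in neither parent, 35.0% were listed in 93-11/Nipponbare, and 43.2% in the opposite direction. In Nipponbare/93-11 the share in neither parent was 28.9% in the narrowest class, 6.67% in class 8 and 17.6% in the widest class. In 93-11/Nipponbare it was 24.1, 4.78 and 16.3% in the same classes, for which no moved level was computed. By chromosome it ran from 10.7% (chromosome 7) to 14.2% (chromosome 12) in Nipponbare/93-11 and from 9.34% (chromosome 2) to 11.2% (chromosome 12) in 93-11/Nipponbare.

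All 4 lists were also merged into 37441 nuclear regions. Of these, 29.9% held a peak in every line, 11.7% in 93-11 and both hybrids and 6.90% in Nipponbare and both hybrids. A further 5085 regions (13.6%) were listed in Nipponbare alone and 2263 in 93-11 alone. The hybrids without a parent accounted for 2008 regions in Nipponbare/93-11 alone, 1414 in 93-11/Nipponbare alone and 1056 (2.82%) in both. Regions of both parents and neither hybrid were the rarest of these sets, at 491 (1.31%).

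The histone marks of the parent were set beside the fate of its single-parent peaks. H3K4me3 and H3K9ac mark active promoters, and H3K27me3 is set by Polycomb complexes at repressed genes. Of 1397 93-11-only methylation peaks that overlapped an H3K4me3 peak of 93-11, 76.9% (74.6 to 79.1) were listed in Nipponbare/93-11, against 66.0% (65.0 to 67.1) of the 7918 without one. In 93-11/Nipponbare the shares were 65.4 and 54.3%. With and without H3K27me3 of 93-11 they were 70.4 and 67.4% in Nipponbare/93-11, with overlapping intervals, and 65.1 and 55.1% in 93-11/Nipponbare, a gap close to that for H3K4me3. With and without H3K9ac they were 74.2 and 66.4% in Nipponbare/93-11, and 64.9 and 54.2% in 93-11/Nipponbare. The peaks with H3K4me3 were the narrower, with medians of 1218 and 1318 bp. For Nipponbare-only peaks with and without H3K4me3 of Nipponbare the shares were 29.9 and 32.1% in Nipponbare/93-11 and 49.5 and 46.0% in 93-11/Nipponbare, with overlapping intervals in both hybrids. With and without H3K27me3 of Nipponbare they were 34.3 and 31.7% in Nipponbare/93-11, with overlapping intervals, and 50.7% (47.2 to 54.2) and 46.0% (45.0 to 47.0) in 93-11/Nipponbare.

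The widest regions of each fate show what these classes look like, on the authors' coordinates. The widest Nipponbare-only peaks in both hybrids were 10331 bp on chromosome 8 (13569385 to 13579716), 8235 bp on chromosome 7 (18009782 to 18018017) and 8185 bp on chromosome 2 (20631369 to 20639554). The peaks on chromosomes 7 and 2 came back at nearly the same edges, at 8249 and 8433 bp and at 8240 and 8231 bp in Nipponbare/93-11 and 93-11/Nipponbare. On chromosome 8 a 13365 bp peak of 93-11/Nipponbare covered the whole region, while a 2722 bp peak of Nipponbare/93-11 covered 9.74% of it. The widest in Nipponbare/93-11 alone was on chromosome 1 from 17071809 to 17092122 (20313 bp), inside a hybrid peak of 88321 bp. The widest in 93-11/Nipponbare alone was on chromosome 4 from 9785815 to 9805742 (19927 bp), inside one of 82260 bp. The second in each of these sets was covered in part: 39.6% of a 13957 bp peak on chromosome 12 (4288253 to 4302210) in Nipponbare/93-11, and 43.9% of a 17256 bp peak on chromosome 2 (15104886 to 15122142) in 93-11/Nipponbare. The widest Nipponbare peak of all, on chromosome 7 from 12185186 to 12272109 (86923 bp), was listed in no other line, as was its neighbour from 12111221 to 12141862 (30641 bp).

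Of the widest 93-11-only peaks in both hybrids, those on chromosome 4 kept nearly the same edges and that on chromosome 9 ended earlier in the hybrids. The peak on chromosome 9 from 13437971 to 13455682 was 17711 bp in 93-11, 16407 bp in Nipponbare/93-11 and 16633 bp in 93-11/Nipponbare, where it ended at 13454579 and 13454595. On chromosome 4 a peak from 10578647 to 10591515 was 12868, 12875 and 12777 bp in these lines, and one from 15837342 to 15848457 was 11115, 11093 and 10995 bp. A 10656 bp peak on chromosome 4 from 8983095 to 8993751 was listed in Nipponbare/93-11 alone, at 11746 bp. An 8527 bp peak on chromosome 9 from 4711741 to 4720268 was listed in 93-11/Nipponbare alone, at 8593 bp. An 8378 bp peak on chromosome 8 from 12302678 to 12311056, also listed in 93-11/Nipponbare alone, met a peak of 1050 bp that covered 12.5% of it. The widest in neither hybrid were a 14097 bp peak on chromosome 4 (15565380 to 15579477) and a 12087 bp peak on chromosome 1 (7949448 to 7961535).

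Among shared peaks listed in neither hybrid, the widest in Nipponbare were 10661 bp on chromosome 4 (31510940 to 31521601) and 9261 bp on chromosome 7 (8205043 to 8214304). The partner in 93-11 was only 1314 bp on chromosome 4 and 2009 bp on chromosome 7. The widest Nipponbare/93-11 peak in neither parent was 73396 bp on chromosome 9, from 2787791 to 2861187. A 93-11/Nipponbare peak began at the same position but ran on to 2885478 (97687 bp) and met a parental peak there, so it was not in this class. The widest 93-11/Nipponbare peaks in neither parent were 20427 bp on chromosome 11 (10636555 to 10656982), not listed in Nipponbare/93-11, and 19848 bp on chromosome 4 (8764045 to 8783893), with a partner of 12356 bp in Nipponbare/93-11. On chromosome 10 the hybrids had nearly the same peak, from 11175301 to 11189676 (14375 bp) in Nipponbare/93-11 and from 11175463 to 11189682 (14219 bp) in 93-11/Nipponbare.

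The region most widened in both hybrids lay on chromosome 1 from 18126458 to 18136764. Its peak was 1437 bp in Nipponbare, 1025 bp in 93-11, 10234 bp in Nipponbare/93-11 and 10265 bp in 93-11/Nipponbare, so both hybrid peaks ran on for several kilobases past the parental ones. On chromosome 2 from 31378569 to 31385192 the widths were 1609, 906, 6294 and 6623 bp in the same order of lines. The strongest narrowing was on chromosome 4 from 17685948 to 17689865, with 3836, 2127, 1073 and 1096 bp. There the hybrid peaks, from 17688771 and 17688769, overlapped the end of the Nipponbare peak and not the 93-11 peak, which ended at 17688726. On chromosome 3 from 27288197 to 27291879 the widths were 3352, 3650, 1677 and 1958 bp.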

How the data were processed

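Each DNA methylation list holds the peaks of 1 library in 3 columns (chromosome, start, end) as deposited by the authors, with no score, count, depth or other value per peak. Per the labels' protocols the DNA was digested with McrBC. The genome build, aligner, peak caller, threshold and control were not given in the sources used here. Coordinates follow the files, in which counting from 0 or 1 is not stated. The gene annotation provided belongs to a newer assembly and was not used, so no gene or sequence is named. The mRNA and small RNA libraries (8 samples) were not used.

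Overlaps of at least 1 bp, widths (end minus start) and exact Clopper-Pearson 95% intervals were computed with Python 3.11.15, numpy 2.4.6 and scipy 1.17.1, and figures with matplotlib 3.10.9. The intervals cover counting error only. Plastid and mitochondrial peaks (6 to 13 per list) were left out of moved levels, chromosomes, profiles, parental width classes and width changes. They stayed in the counts of fate, the median widths by fate, the histone overlaps and the width classes of hybrid peaks. Overlap and shift routines were tested on deposited lists and on thinned, moved or widened copies of them. Alternatives were a 50% reciprocal overlap, overlap within 500 bp, merging within 500 bp, lists at or above median width, lists of equal length, shorter offsets, other width ratios and summed widths. Moving lists together was added after seeing the data.

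Regions were named by a width rule. It took the 3 widest single-parent peaks of each parent in both hybrids, and the 2 widest of every other fate. It also took the 2 widest shared Nipponbare peaks in neither hybrid, and for each hybrid the 2 widest in neither parent with and without the other hybrid. Regions with 1 peak per line gave the 3 most widened and 3 most narrowed, and windows the 2 highest and 2 lowest. Some of these are left out of the text. The members, classes and rules were chosen with earlier results of these data known.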

Additional observations from a re-analysis of the deposited data

Results flagged for a closer look

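Plastid and mitochondrial sequences, outside the nuclear comparisons, also held DNA methylation peaks. Nipponbare held 7, 93-11 held 12, Nipponbare/93-11 held 6 and the hybrid 93-11/Nipponbare held 13 such peaks. They are given because no control list gives a level to set them against. These sequences were left out of the moved levels, chromosomes, profiles, parental width classes and width changes. They stayed in the counts of fate, the median widths by fate, the histone overlaps and the width classes of hybrid peaks. Of the 9 mitochondrial peaks of 93-11, 3 were listed in 93-11/Nipponbare and 1 in Nipponbare/93-11.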

How the results depend on the processing

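Of 60 alternative values, 20 stayed within the 95% counting interval of the share reported (for moved levels, within the range over the offsets) and 40 lay outside it. Shares are given in the order shared Nipponbare peaks in both hybrids, Nipponbare-only peaks in Nipponbare/93-11 and in 93-11/Nipponbare, 93-11-only peaks in the same hybrids, and peaks in neither parent in the same hybrids. With a 50% reciprocal overlap they were 84.4, 27.3, 41.8, 63.8, 53.1, 15.9 and 13.1%. With peaks at or above the median width of their list they were 77.9, 29.0, 41.7, 62.3, 51.3, 18.0 and 15.8%. With lists cut to equal length they were 83.1, 30.3, 44.7, 60.8, 48.0, 11.7 and 9.25%. With peaks within 500 bp counted as overlapping, those that moved were 33.5, 47.9, 69.0, 57.2, 11.8 and 9.34%. The moved levels of single-parent peaks, in the order of the same 4 comparisons, were 6.31, 6.27, 5.96 and 5.97% with a 50% reciprocal overlap, and 9.34, 10.6, 12.7 and 10.9% with the lists moved together. Pooled over parents and hybrids, 10.7% of pairs were widened and 2.03% narrowed by 1.5 times, against 23.4 and 5.35% at a smaller ratio, and 3.67 and 0.511% at a ratio of 2. Widened peaks were 12.1% with widths summed over all overlapping peaks.

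No paired analysis was possible because each line has 1 library and no result comes from a test. Leaving out a replicate was not possible for the same reason. Depth and threshold are unknown, so peaks not listed for want of reads cannot be told apart from unmethylated regions, and a higher coverage of the hybrid lists cannot be read as more methylation.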
